A study of Mus musculus with 8 samples.

Results

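MHC (major histocompatibility complex) antigen presentation was read from 52 probe sets of 37 genes, out of 24833 probe sets and 13674 genes measured under a single symbol. They are every probe set with exactly 1 gene symbol that starts with H2- (H2-Ke left out) or is B2m, Tap1, Tap2, Tapbp, Cd74, Ciita, Nlrc5, Calr, Canx or Pdia3. On the A chip 25 of them belonged to class I (H2 heavy chains and B2m), 13 to class II (the H2-A, H2-E, H2-O, H2-P and H2-DM genes and Cd74) and 11 to peptide loading, chaperones and regulators. The other 3 were on the B chip.

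RNA was taken from the whole skin of E18.5 mouse embryos, near the end of gestation, whose parents were p63 heterozygous. The p63 null embryos lack functional p63, the transcription factor of stratified epithelia that Trp63 encodes, and their wild-type counterparts came from the same kind of mating. Each genotype had 2 arrays on each of 2 Affymetrix chips, and the design text names 2 embryos per genotype. The allele, the strain and its MHC haplotype, and the sex of the embryos were not stated, and whole skin mixes epidermis, dermis, vessels and resident leukocytes.

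Class I molecules are a polymorphic heavy chain paired with beta-2-microglobulin (B2m), and they show peptides cut by the proteasome to CD8 T cells on nearly all nucleated cells. The peptides enter the endoplasmic reticulum through the transporter of Tap1 and Tap2 and are loaded with the help of tapasin (Tapbp), calreticulin (Calr), calnexin (Canx) and Pdia3. Class II molecules show endosomal peptides to CD4 T cells, are held by the invariant chain Cd74 until H2-DM exchanges their placeholder peptide, and are made mainly by professional antigen-presenting cells such as the macrophages, dendritic cells and Langerhans cells of skin. Interferons raise class I genes through IRF and STAT factors and Nlrc5, and Ciita switches class II genes on.

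A probe set was tested when its mean log2 value over the 4 arrays of its chip lay above the 40th percentile, which corresponds to a signal of about 54 on the A chip. Signals are deposited MAS5 values in arbitrary units. They depend on the probes as well as on the RNA, so a level is compared between arrays and never between genes. A log2 fold change is the null value minus the wild-type value on a log2(signal + offset) scale, and every adjusted p for a gene comes from limma with Benjamini-Hochberg adjustment over all tested probe sets of the chip. Over the whole A chip 7453 probe sets were tested, and limma called 22.1% of them higher in the null and 22.2% lower, and both null arrays lay above both wild-type arrays in 37.8%. Of the 49 A-chip members 27 were tested.

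Trp63 itself read 379.3 and 347.1 in wild type against 61.9 and 46.6 in null skin; whether its probes lie in the altered part of the gene is unknown. Several facts of the arrays moved with genotype. On the A chip both null arrays had a beta-actin 3'/5' ratio of 1.27, below the wild-type ratios of 1.63 and 1.69. The summed signal of 16 keratinocyte markers was 43174.9 and 41555.0 in wild type against 4504.8 and 5176.7 in the null. Of the 13 tested 12 fell, led by Lor, Ivl, Dsc1 and Flg (log2 fold changes of -5.42, -4.53, -4.48 and -4.41). In the null, Ivl (12.4 and 19.8) and Dsc1 (20.7 and 21.1) lay below the level for testing. Both were tested only through the wild-type arrays and had to differ. Keratin genes Krt5 and Krt14 read at most 15.9 in every array, so these probe sets did not show the basal layer. Null array 2 stood apart in a spiked control, with the 3' probe set of CreX at 6419.5 on the A chip against 3333.7 to 3836.8 in the other arrays. The part of these differences in the results below was not tested, and members whose call ends without null array 2 are named as they come.

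Class I transcripts were higher in p63 null skin. Of the 16 tested class I probe sets 13 rose and 0 fell in limma, against 22.1% and 22.2% of all tested probe sets. At an unadjusted p below 0.05 the counts were 15 and 0. The median log2 fold change was 0.93, beside 0.02 over everything tested on the chip. The 16 include H2-Q5 and 1 probe set of H2-D1 (97541_f_at) whose wild-type means lay below the level for testing, so that they entered only through the null arrays and had to differ. Without them 11 of 14 rose and 0 fell, with a median of 0.93. Read by gene, with the probe set of highest mean signal, 10 of 13 genes rose. These 10 still include H2-Q5, which had to differ to be tested. In whole skin more cells that make a transcript and more transcript per cell cannot be told apart. The 2 arrays of a genotype limit the precision of each value.

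B2m, the light chain shared by all class I molecules, read 2300.7 and 2378.0 in wild type against 4345.6 and 4671.9 in null skin. Both null arrays were well above both wild-type arrays (log2 fold change 0.94, SE 0.11, adjusted p = 0.000190). Its probe set carries no family suffix, and B2m is not a member of the heavy chain family.

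The classical heavy chains H2-K1 and H2-D1, which present most peptides to CD8 T cells, were read by several probe sets. H2-K1 (93120_f_at) read 919.5 and 938.3 in wild type against 2347.0 and 2313.1 in null skin. The arrays of each genotype lay close together and the genotypes far apart (log2 fold change 1.31, SE 0.11, adjusted p = 2.19e-05). Its other tested probe set (97125_f_at) read 87.5 and 118.5 against 286.6 and 328.6 (1.48, SE 0.18, adjusted p = 0.000253). H2-D1 (97540_f_at) read 658.7 and 781.0 in wild type against 2015.8 and 1902.8 in null skin (1.43, SE 0.12, adjusted p = 2.94e-05). The remaining H2-D1 probe sets rose as well, 101886_f_at from 534.9 and 564.0 to 1323.2 and 1289.4 (1.23, adjusted p = 4.14e-05) and 97541_f_at from 31.3 and 48.7 to 130.9 and 155.6 (1.58, adjusted p = 0.000655). The 4 tested probe sets whose wild-type mean lay above the level for testing had log2 fold changes from 1.23 to 1.48, while 97541_f_at was tested only through its null arrays. The remaining H2-K1 probe set, 97700_at, stayed below the level for testing at 36.1 and 27.9 in wild type against 71.9 and 37.8 in null skin.

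Heavy chain genes of the K and Q regions moved the same way. H2-K2, a relative and neighbour of H2-K1, had the largest change among the tested class I probe sets: 465.2 and 508.4 in wild type against 1558.3 and 1721.9 in null skin (log2 fold change 1.73, SE 0.12, adjusted p = 7.79e-06). H2-Q4 read 139.6 and 135.6 in wild type against 321.1 and 322.8 in null skin (1.15, SE 0.15, adjusted p = 0.000286). H2-Q10, a secreted class I protein best known from liver, read 131.1 and 86.9 against 213.0 and 196.5 (0.86, SE 0.21, adjusted p = 0.00855). H2-Q5 read 61.5 and 39.4 against 111.9 and 93.9 (0.89, SE 0.24, adjusted p = 0.0152). It passed the filter only through the null arrays. The H2-Q10 call was lost without wild-type array 2 (adjusted p = 0.0597), and that of H2-Q5 without wild-type array 2 (0.103), without null array 1 (0.0672) and with no filter (0.0550). H2-Q1 was not tested and its genotypes overlapped, at 30.6 and 24.6 against 21.2 and 26.9.

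Among the non-classical genes, H2-Bl read 231.6 and 224.4 in wild type against 530.6 and 371.4 in null skin. The null arrays differed from each other by more than the wild-type arrays did, and both were above them (log2 fold change 0.92, SE 0.18, adjusted p = 0.00270). H2-T18, a thymus leukaemia antigen, read 264.1 and 260.0 against 353.7 and 399.8 (0.50, SE 0.14, adjusted p = 0.0167). H2-M3, which presents N-formylated peptides, read 80.3 and 84.9 against 139.0 and 133.1 (0.64, SE 0.18, adjusted p = 0.0185). The last 2 calls were fragile: that of H2-T18 was lost without null array 2 (adjusted p = 0.0683), wild-type array 1 (0.0535) or wild-type array 2 (0.0707), and that of H2-M3 without null array 1 (0.0571), wild-type array 1 (0.0734) or wild-type array 2 (0.0578). Another H2-M3 probe set (102730_at) was untested and its genotypes overlapped, at 50.8 and 18.6 against 39.0 and 16.0.

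The remaining tested class I genes did not pass. H2-M10.1, of a family known from the vomeronasal organ, gave a value of 0.48 on probe set 100304_at (adjusted p = 0.0630). H2-M9 had one of 0.45 (adjusted p = 0.0899) and H2-M2 one of 0.26 (adjusted p = 0.315). All 3 nevertheless had both null arrays above both wild-type arrays, as did 37.8% of all tested probe sets. The probe sets of H2-M10.1 disagreed. Probe set 100305_g_at, below the level for testing, read 84.2 and 78.7 in wild type against 22.2 and 24.0 in null skin, and without the filter it was called lower (log2 fold change -1.39, adjusted p = 0.00872). The third, 100303_at, read 11.1 and 7.2 against 10.5 and 19.6. No direction can therefore be given for H2-M10.1.

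Of the 9 untested class I probe sets, H2-D4 (101653_f_at) read 7.8 and 6.3 in wild type against 35.9 and 85.1 in null skin, and without the filter it was called higher (1.79, adjusted p = 0.0159). H2-M1 read 6.7 and 5.0 against 15.2 and 31.8, and H2-T24 read 7.6 and 6.1 against 11.8 and 26.1. H2-D4 101652_i_at lay at or under 3.8 in every array. At such signals the deposited values give no more than a low level.

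Cross-binding between heavy chains concerns most of these values. The array's maker marks a probe set with the suffix _f_at where its probes match a family of related sequences, and 12 of the 25 class I probe sets carried it. Of these 10 were tested and 10 rose, on a chip where 22.1% of all tested probe sets rose. Their log2 fold changes ran from 0.50 to 1.73 with a median of 1.27. Without H2-Q5 and H2-D1 97541_f_at, which entered through the null arrays, 8 of 8 rose over the same range. Of the 6 tested class I probe sets without the suffix 3 rose (B2m, H2-Q10 and H2-M3), and the 6 ranged from 0.26 to 0.94 with a median of 0.56. H2-Q10 and H2-M3 were read on probe sets with the suffixes _s_at and _g_at, and their freedom from cross-binding was not tested. With the plain suffix _at only B2m, which is no heavy chain, was called. The difference between these kinds of probe set was not tested. Another 11 H2 probe sets had several symbols and are left unnamed. Of these 7 were tested and 3 rose, by 0.98, 1.23 and 1.50, beside 22.1% of all tested probe sets. The one with 1.23 read 53.3 and 38.1 in wild type against 123.6 and 122.8 in null skin. Both wild-type values lay below the level for testing, so it entered only through the null arrays and had to differ. How the rise divides among H2-K1, H2-K2, H2-D1 and the H2-Q genes cannot be read from probe sets that may cross-bind.

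**Figure D1:**
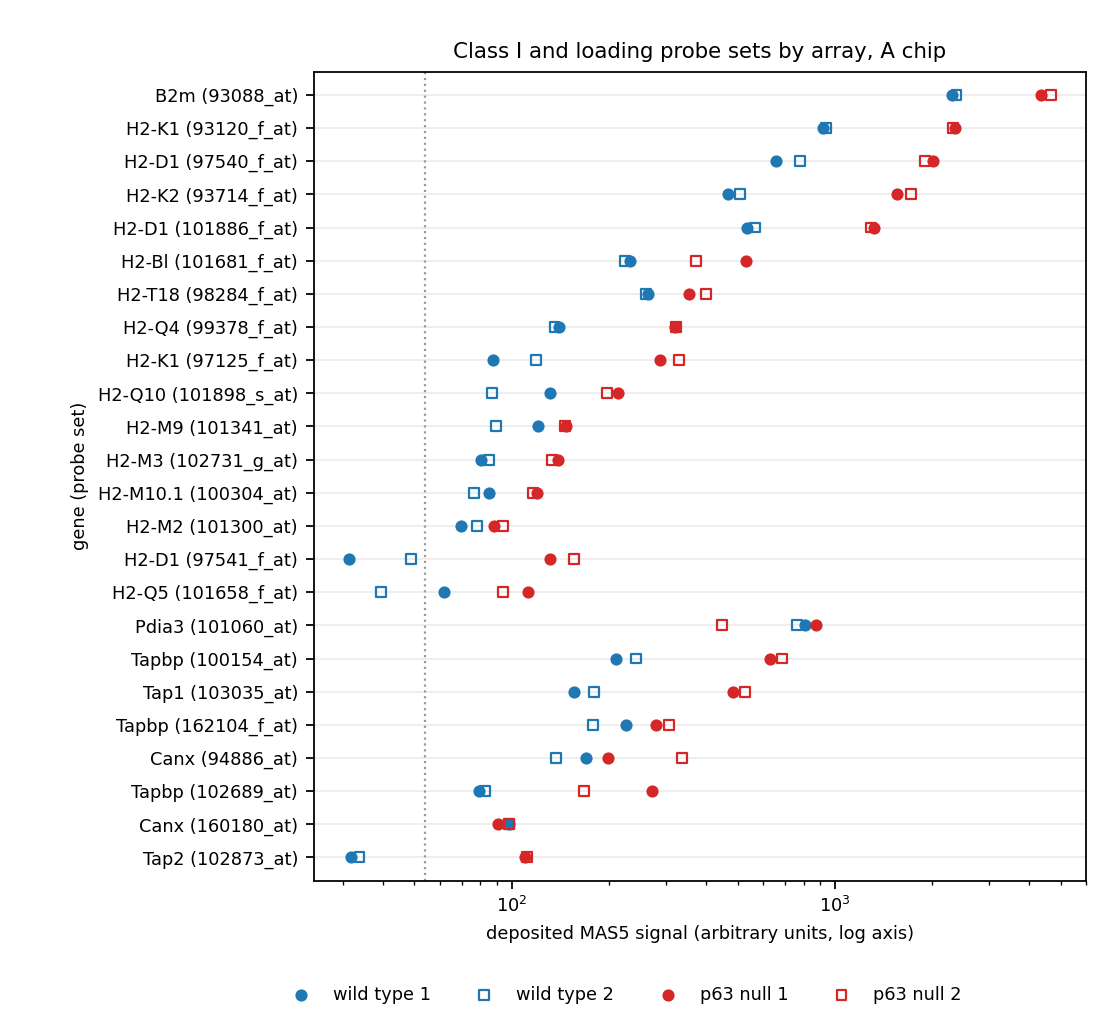
Deposited MAS5 signal (arbitrary units, log axis) of each tested class I, loading, chaperone and regulator probe set of the A chip in the 2 wild-type (blue) and 2 p63 null (red) arrays; the dotted line marks the signal of about 54 that corresponds to the level for testing. Red symbols lie to the right of blue ones for all 16 class I probe sets and for Tap1, Tap2, Tapbp and Canx 94886_at. The same held for 37.8% of all tested probe sets of the A chip. H2-Q5, H2-D1 97541_f_at and Tap2 were tested only through their null arrays and had to differ. The null arrays of Pdia3 straddle the wild type (876.7 and 447.9).

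Peptide transport and loading genes rose beside class I, while the general chaperones were mixed. Of the 8 tested probe sets of this group 6 rose and 0 fell in limma, and the same counts were found at an unadjusted p below 0.05. The median log2 fold change was 1.00. The 6 include Tap2, which entered only through the null arrays; without it 5 of 7 rose, with a median of 0.72. By gene 4 of 5 rose, and these 4 still include Tap2. The background stays at 22.1% higher and 22.2% lower on this chip.

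Tap1, a subunit of the peptide transporter, read 155.3 and 179.4 in wild type against 484.5 and 525.7 in null skin (103035_at: log2 fold change 1.53, SE 0.14, adjusted p = 4.99e-05). Tap2, its partner, read 31.7 and 33.8 in wild type against 109.7 and 111.4 in null skin, with no overlap and little spread within a genotype (1.44, SE 0.21, adjusted p = 0.000642). The wild-type mean of Tap2 lay below the level for testing, so it was tested only through the null arrays and had to differ. The ratio of mean signals, null over wild type, was 3.02 for Tap1.

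Tapasin (Tapbp), which bridges the transporter and the empty heavy chain, was higher on all 3 of its probe sets. Probe set 100154_at read 210.5 and 241.8 in wild type against 629.9 and 687.6 in null skin (log2 fold change 1.49, SE 0.14, adjusted p = 4.00e-05). On 102689_at it read 79.0 and 82.6 against 271.5 and 167.6, with the null arrays apart from each other (1.27, SE 0.23, adjusted p = 0.00191). The smallest change was that of 162104_f_at, at 225.6 and 178.3 against 279.9 and 306.0 (0.52, SE 0.16, adjusted p = 0.0283). That call was lost without null array 2 (adjusted p = 0.0859), without wild-type array 2 (0.202) and with no filter (0.0574).

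Calnexin (Canx), the membrane chaperone of newly made heavy chains, gave divided results. Probe set 94886_at read 169.4 and 136.7 in wild type against 198.4 and 336.0 in null skin (log2 fold change 0.72, SE 0.23, adjusted p = 0.0335). Its rise rested on null array 2, without which the value was 0.36 (adjusted p = 0.200), and it was also lost without wild-type array 2 (0.120), with no filter (0.0940) and with no variance trend (0.0564). The other Canx probe set, 160180_at, read 97.9 and 98.3 against 90.6 and 98.1 (-0.05, SE 0.19, adjusted p = 0.847).

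Pdia3, the thiol oxidoreductase of the loading complex, read 806.4 and 762.8 in wild type against 876.7 and 447.9 in null skin (log2 fold change -0.32, SE 0.25, adjusted p = 0.330). One null array was above and the other below both wild-type arrays. Null array 2 set its direction: without it the value was 0.16 (adjusted p = 0.357), and without null array 1 it was called lower at -0.79 (adjusted p = 0.000602). Calreticulin (Calr) read 2.6 and 1.7 against 13.0 and 14.8, far below the level for testing, and without the filter it was called higher (0.83, adjusted p = 0.0124). A second Tap1 probe set on the A chip, 162278_r_at, was also untested at 31.2 and 22.4 against 34.2 and 42.6.

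**Figure D2:**
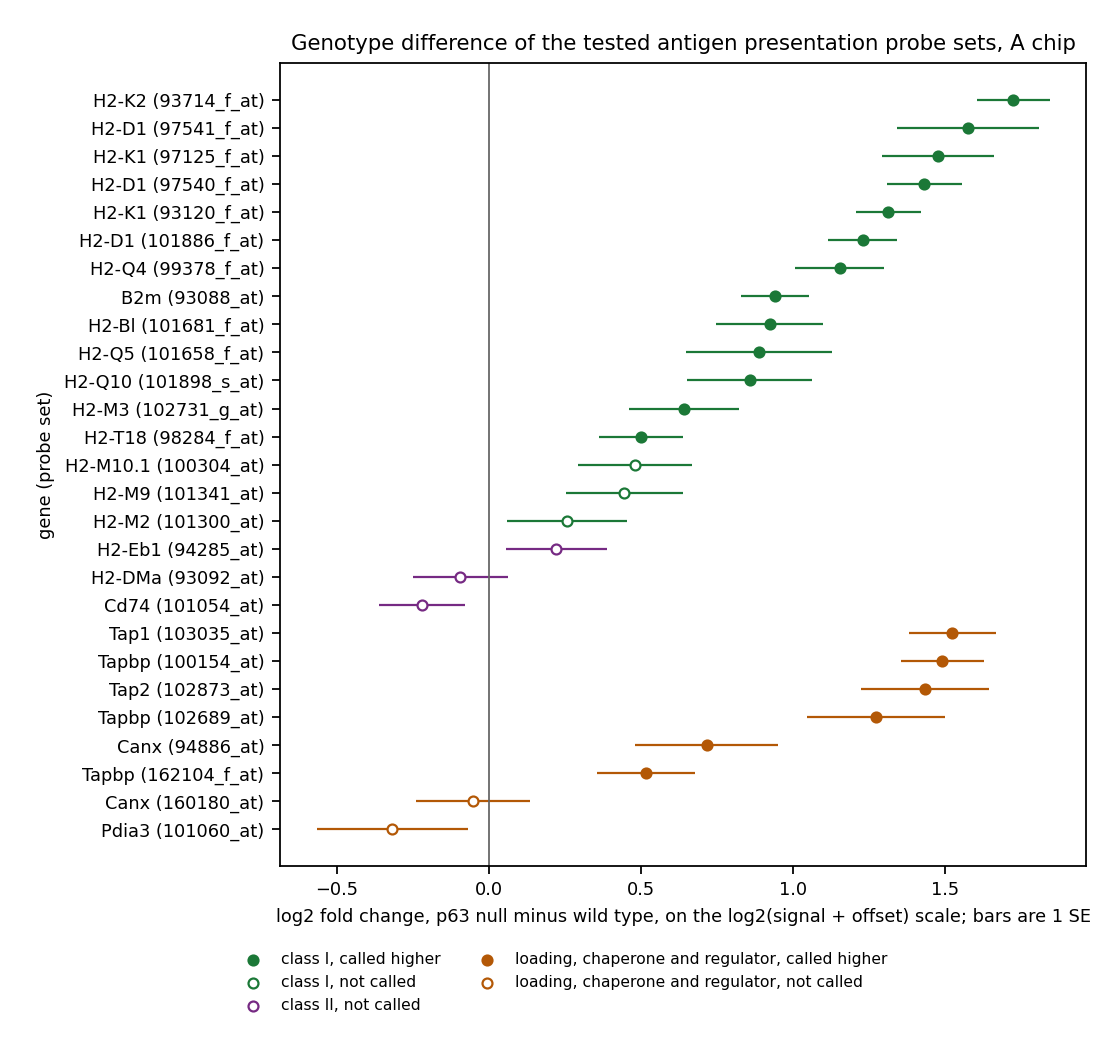
Log2 fold change (p63 null minus wild type, log2(signal + offset) scale) of the 27 tested member probe sets of the A chip, with bars of 1 SE; filled points passed an adjusted p of 0.05 in limma and open points did not. Class I values run from 0.26 to 1.73, the 3 class II values lie between -0.22 and 0.22, and loading genes split into Tap1, Tap2 and Tapbp on the right and Canx 160180_at and Pdia3 near or below 0.

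Class II transcripts showed no called change. Of the 13 class II probe sets 3 were tested on the A chip, and 0 rose and 0 fell in limma, with 0 also at an unadjusted p below 0.05. Their median log2 fold change was -0.09, beside 0.02 over all tested probe sets. On this chip 22.1% of all tested probe sets rose and 22.2% fell, so 0 calls among 3 probe sets say little about class II. The difference between class I and class II was not itself tested.

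Cd74, the invariant chain, read 290.6 and 271.3 in wild type against 233.7 and 245.3 in null skin. Both null arrays were slightly below both wild-type arrays (log2 fold change -0.22, SE 0.14, adjusted p = 0.236). H2-DMa, a subunit of the peptide exchanger, read 189.3 and 178.4 against 170.6 and 172.4 (93092_at: -0.09, SE 0.16, adjusted p = 0.652). H2-Eb1, the beta chain of the E molecule, read 137.8 and 159.6 against 179.6 and 170.8 (94285_at: 0.22, SE 0.17, adjusted p = 0.304). With SEs of 0.14 to 0.17, changes of the size seen for the classical class I genes were not seen in these 3. A p that misses the threshold does not show that they were unchanged.

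The A molecule was below the level for testing, with its wild-type arrays above its null arrays. H2-Ab1, its beta chain, read 90.6 and 74.2 in wild type against 19.3 and 43.6 in null skin. H2-Aa, its alpha chain, read 70.4 and 88.5 against 13.3 and 43.7. Wild-type means of both lay above the level for testing and the null means below it, with a wide gap between the null arrays. Without the filter their log2 fold changes were -1.15 (adjusted p = 0.0506) and -1.25 (adjusted p = 0.0678), neither past the threshold.

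H2-O, an inhibitor of H2-DM made mainly by B cells and some dendritic cells, was low. H2-Oa read 46.8 and 37.1 in wild type against 13.8 and 15.4 in null skin, and without the filter it was called lower (-0.99, adjusted p = 0.0271). H2-Ob read 43.4 and 17.3 against 27.0 and 4.8, with overlap. H2-DMb2 went the other way at 7.8 and 7.2 against 40.9 and 21.6, called higher without the filter (1.08, adjusted p = 0.0321), while H2-DMb1 overlapped at 22.0 and 53.9 against 36.9 and 58.9. The second H2-DMa probe set (162346_f_at) read 21.0 and 26.6 against 32.1 and 31.7. H2-Pa read 9.0 and 7.8 against 11.8 and 57.1, H2-Ea 12.3 and 7.4 against 4.9 and 6.0, and H2-Eb2 at most 11.1 in any array. E alpha chain expression depends on the MHC haplotype, which is not given here.

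**Figure D3:**
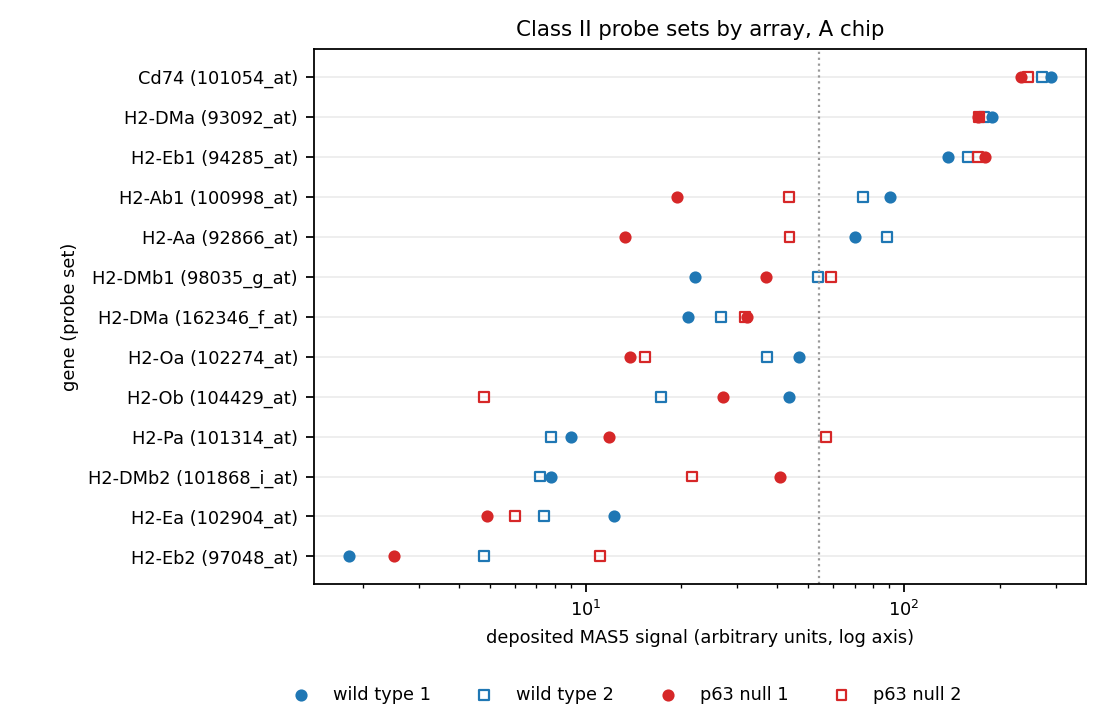
Deposited MAS5 signal (arbitrary units, log axis) of all 13 class II probe sets of the A chip in the 2 wild-type (blue) and 2 p63 null (red) arrays; the dotted line marks the signal of about 54 that corresponds to the level for testing. Only Cd74, H2-DMa 93092_at and H2-Eb1 have all 4 arrays to the right of it, and for these the arrays lie close together, while H2-Ab1 and H2-Aa cross it with null values of 13.3 to 43.7.

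The master regulators gave no call. Ciita, the class II transactivator, read 34.2 and 36.4 in wild type against 35.7 and 25.6 in null skin, below the level for testing and overlapping. Nlrc5, its class I counterpart, is on the B chip, where the level for testing corresponds to a signal of 166.9. It read 67.3 and 8.3 in wild type against 74.1 and 132.4 in null skin, so the spread between arrays of a genotype was as wide as the gap (without the filter 0.83, adjusted p = 0.216). The other B-chip members were also untested and overlapped: H2-Eb1 at 44.2 and 59.4 against 32.0 and 78.5, and Tap1 at 89.3 and 59.7 against 78.3 and 126.9.

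The promoters of 6 members are shown because class I and class II genes are known to be controlled through short shared elements just upstream of the start. In the RefSeq promoter table of GRCm38.p6, 23 of the 37 member genes had an entry, each taken at its first annotated start. The 180 bases before that start are printed in lower case, in the direction of the gene, with matches to any of the 7 motifs searched in capitals. The windows are chr17:34000348-34000527, minus strand (H2-K1), chr17:35262914-35263093, plus strand (H2-D1), chr2:122147507-122147686, plus strand (B2m), chr17:34187376-34187555, plus strand (Tap1), chr17:34287824-34288003, minus strand (H2-Aa) and chr17:34305687-34305866, plus strand (H2-Eb1).
H2-K1: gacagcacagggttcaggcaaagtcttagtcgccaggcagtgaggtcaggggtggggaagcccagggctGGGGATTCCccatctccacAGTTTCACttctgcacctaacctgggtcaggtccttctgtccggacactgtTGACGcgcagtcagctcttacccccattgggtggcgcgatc
H2-D1: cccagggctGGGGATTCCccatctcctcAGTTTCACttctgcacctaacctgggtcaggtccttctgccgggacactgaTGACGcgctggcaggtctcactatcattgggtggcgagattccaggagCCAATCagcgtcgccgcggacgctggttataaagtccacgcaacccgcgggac
B2m: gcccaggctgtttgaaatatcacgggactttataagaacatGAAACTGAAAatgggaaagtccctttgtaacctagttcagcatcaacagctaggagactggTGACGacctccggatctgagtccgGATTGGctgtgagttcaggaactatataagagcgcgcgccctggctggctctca
Tap1: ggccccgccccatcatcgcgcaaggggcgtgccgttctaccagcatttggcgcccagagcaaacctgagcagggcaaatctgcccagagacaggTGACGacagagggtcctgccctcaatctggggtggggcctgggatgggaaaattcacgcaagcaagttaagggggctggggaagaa
H2-Aa: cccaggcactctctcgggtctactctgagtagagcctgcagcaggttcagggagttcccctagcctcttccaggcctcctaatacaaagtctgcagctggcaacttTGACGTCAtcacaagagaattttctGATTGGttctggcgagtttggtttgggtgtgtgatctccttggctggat
H2-Eb1: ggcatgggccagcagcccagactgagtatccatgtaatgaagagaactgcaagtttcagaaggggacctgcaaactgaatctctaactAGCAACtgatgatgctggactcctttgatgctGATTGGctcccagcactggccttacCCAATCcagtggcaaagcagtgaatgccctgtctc

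Each motif was searched on both strands from 250 bases before to 50 after the start, and its share among the 32851 promoter windows of the table is given with it. The motifs were chosen with these sequences and the expression values known, so the counts describe the members and test nothing. The interferon consensus core of class I genes, GTGAAACT, was in 4 of 10 class I windows, 0 of 8 class II windows and 0 of 5 loading windows, and in 0.761% of all windows. Those 4 were H2-K1, H2-D1, H2-Q4 and H2-Q10. The match lies on the strand opposite to the gene, so it is printed above as its reverse complement. A kappaB site, GGGGATTCC, stood shortly before the interferon core in H2-K1 and in H2-D1, and was in 0.25% of all windows. In H2-K1 these lay 111 and 92 bases before the annotated start, and in H2-D1 171 and 152 bases before it. The windows of both genes had 176 of 240 bases in common when shifted by 60 bases against each other.

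B2m had a different interferon-type match, GAAANNGAAA, 139 bases before its start, a motif found in 3.44% of all windows. The Y box GATTGG, which NF-Y binds, was in 7 of 10 class I and 7 of 8 class II windows and in 16.1% of all. The X1 core AGCAAC, the mark of class II promoters bound by RFX, was in 4 of 8 class II windows and 1 of 10 class I windows, against 14.8% of all. In H2-Eb1, H2-Eb2, H2-Oa and H2-Ob it lay 32, 32, 33 and 30 bases before a Y box. The core TGACG was in 7 class I windows and 1 class II window (20.8% of all), and the gamma-activated type TTCNNNGAA in 1 of each (8.3% of all). The 2 TGACG matches of H2-Aa overlap on opposite strands. These matches show shared letters, and say nothing of what bound there in these embryos. The 5 loading windows held TGACG and the Y box in 3 each and X1 in 1.

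**Figure D4:**
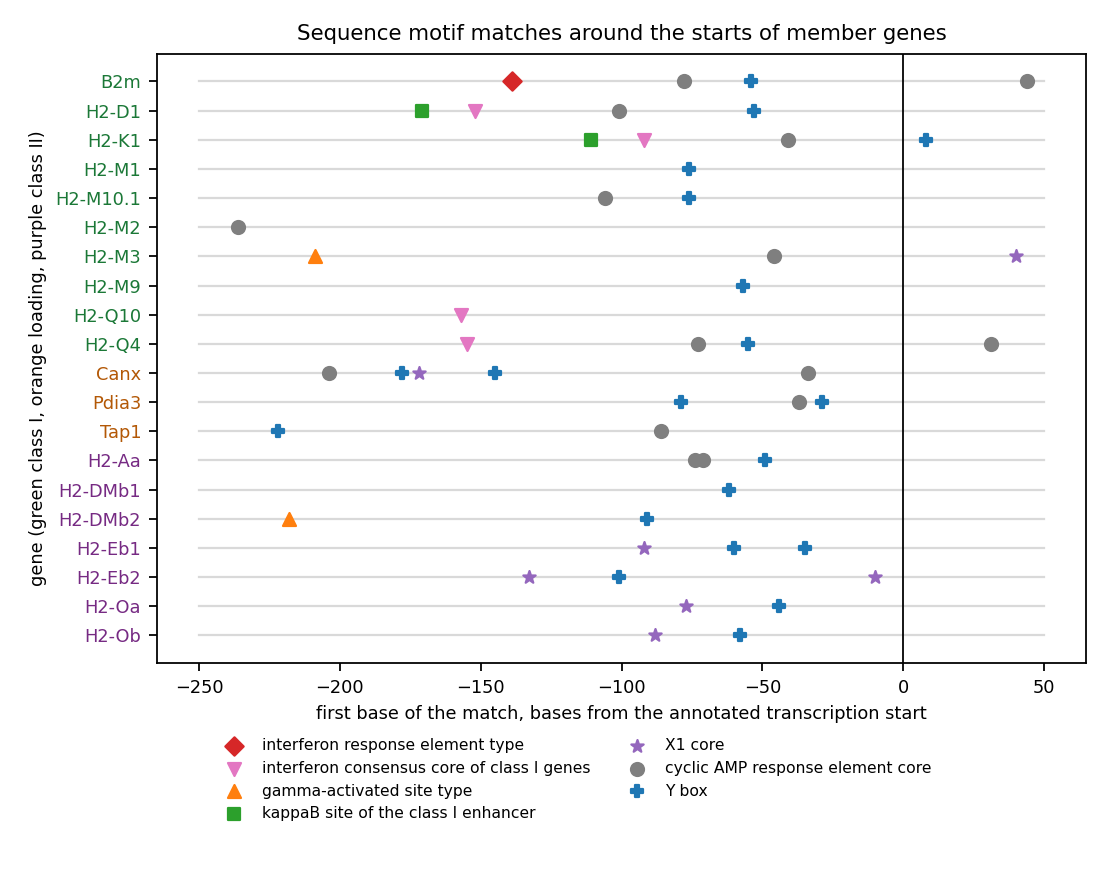
Position of each motif match relative to the annotated transcription start (bases, 0 at the start) in the RefSeq windows of 20 member genes that hold at least 1 match; marker shapes stand for the 7 motifs and label colours for class I (green), loading (orange) and class II (purple). Class I windows with an interferon core have it 92 to 157 bases before the start, and 4 class II windows carry an X1 core 30 to 33 bases before a Y box.

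Regulators outside the member list were read from 33 genes of MHC and interferon control. On the A chip 23 were tested, of which 11 rose and 2 fell, against 22.1% and 22.2% of all tested probe sets. The median was 0.37. Irf7, a driver of type I interferon responses and itself interferon-induced, read 36.0 and 45.3 in wild type against 318.4 and 375.3 in null skin (2.75, adjusted p = 7.25e-06). Its wild-type arrays lay below the level for testing, so it was tested only through the null arrays. Irf9, the DNA-binding part of the complex that type I interferon activates, rose by 1.27 (adjusted p = 0.000117). Irf1, an activator of class I, Tap1 and immunoproteasome genes, read 120.9 and 107.6 against 266.1 and 246.3 (1.08, adjusted p = 0.000691), and Irf8 of myeloid cells read 68.4 and 72.8 against 168.7 and 168.5 (1.12, adjusted p = 0.00101). Nfyb, a subunit of the NF-Y factor, fell by 1.20 (adjusted p = 0.000211). The interferon gamma gene Ifng, named after its values were seen, lay at or under 3.7 in every array and was not tested.

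On the B chip, where limma called 14.5% of 7446 probe sets higher and 14.9% lower, 1 of 7 tested regulators rose and 2 fell. Stat2, the partner of Irf9, read 342.2 and 395.3 in wild type against 1097.7 and 741.7 in null skin (1.18, adjusted p = 0.00651). There too Nfyb fell by 1.54 (adjusted p = 0.00120), and Creb1, which binds TGACG-type sites, fell by 0.46 (adjusted p = 0.0407). A Creb1 probe set of the A chip was untested and its genotypes overlapped, at 45.9 and 31.7 in wild type against 32.4 and 40.7. Rfx5, the DNA-binding subunit of RFX at class II promoters, gave a value of 0.35 (adjusted p = 0.117).

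Of 16 tested genes of peptide supply and class I quality control 6 rose and 0 fell on the A chip, where 22.1% of all tested probe sets rose, and the median was 0.21. The immunoproteasome subunits Psmb8, Psmb9 and Psmb10, which replace the constitutive catalytic subunits under interferon, rose by 1.35, 1.27 and 1.04 (adjusted p = 7.72e-05, 0.00105 and 0.000314). Psmb8 read 160.7 and 164.1 in wild type against 431.6 and 439.4 in null skin. Ube2l6, the conjugating enzyme of ISG15, rose by 0.82 (adjusted p = 0.00568), and Psme1, a subunit of the PA28 proteasome activator, by 0.52 (adjusted p = 0.00570). The remaining call was Prkcsh, the beta subunit of glucosidase II, named after its values were seen (0.35, adjusted p = 0.0450). Erap1, the peptide trimming enzyme, had a value of 0.63 on the B chip (adjusted p = 0.0606). There 0 of 3 tested genes passed, beside 14.5% of all tested probe sets called higher and 14.9% lower.

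Endosomal processing genes of class II rose in part. Of 19 tested genes of processing and costimulation 7 rose and 0 fell on the A chip, against 22.1% and 22.2% of all tested probe sets. The median was 0.31. Ctss, the cathepsin that trims Cd74, read 395.6 and 425.0 in wild type against 1627.8 and 1686.4 in null skin (1.98, adjusted p = 2.30e-06). Lgmn, Ctsb and the adaptor Ap1s1 rose by 1.40, 0.83 and 0.78 (adjusted p = 3.86e-05, 0.000369 and 0.00927). Ifi30, the lysosomal thiol reductase, had a value of -0.25 (adjusted p = 0.125). Cd86, a costimulator, had 0.40 on the A chip (adjusted p = 0.246) and rose by 0.90 on the B chip (adjusted p = 0.0359). On the B chip, where 14.5% of all tested probe sets rose and 14.9% fell, 2 genes were tested. Of these 1 rose and 1 fell. The one that fell was the secretory Rab protein Rab27a (log2 fold change -1.86, adjusted p = 0.000135). Of the class I-like genes without an H2 name 3 were tested and all 3 rose, namely Hfe (1.11), Cd1d1 (0.81) and Procr (0.71).

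Markers of the cells that could carry these transcripts moved too. Of 22 tested macrophage and dendritic cell markers 16 rose and 0 fell, against 22.1% and 22.2% of all tested probe sets. The median was 1.00. The 16 include Ptprc, named after its values were seen, at 50.6 and 47.7 in wild type against 101.0 and 85.5. Its wild-type arrays lay below the level for testing, so it entered only through the null arrays. The summed signal over 27 genes of this list was 5878.4 and 5556.4 in wild type against 12919.3 and 13469.9 in null skin. C1qa, Fcgr1, C1qc and Lyz2 led with 2.09, 1.93, 1.64 and 1.59, while Itgax, a dendritic cell integrin named after its values were seen, had -0.01 (adjusted p = 0.973). Marco and Ccr7 were at 14.6 or less in every array. The part of this cell type in the rise of class I was not tested.

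Langerhans cell markers gave 1 higher (Cd1d1, shared with the class I-like list) and 1 lower (Cd24a, -2.14, also a gene of keratinocytes) of 5 tested, with a median of 0.00. That is near the shares of 22.1% higher and 22.2% lower over all tested probe sets. The summed signal over 9 genes of this list was 8587.7 and 8385.4 in wild type against 4942.5 and 4852.5 in null skin, most of it Cd24a, Cbfb and Id2. Epcam and Ly75 were below the level for testing, at 63.6 or less. The defining marker Cd207 was on the list, but no probe set with it as single symbol was found on either chip. Lymphocyte markers gave 0 calls of 4 tested in limma (adjusted p of at least 0.474), with sums of 1577.9 and 1653.2 against 1660.8 and 1670.5, of which Thy1, a fibroblast gene too, made up most. Cd3e, Cd3d and Cd3g, the signalling chains of the T cell receptor, were at 17.1 or less on the A chip.

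Other cell types also moved, on a chip where 22.1% of all tested probe sets rose and 22.2% fell. Granulocyte and mast cell markers gave 6 higher and 0 lower of 10 tested (sums of 14161.6 and 14661.0 against 21356.3 and 26356.3), led by S100a8 and S100a9 (4.17 and 3.90), which stressed keratinocytes make as well, and by the mast cell proteases Tpsb2 (1.34) and Mcpt4 (0.60). Endothelial markers gave 9 higher and 0 lower of 12 (3383.6 and 3565.1 against 5779.1 and 6301.8), led by Tie1 (1.03), Eng (0.96), Flt1 (0.94) and Cdh5 (0.90). A B-chip probe set of Flt1 gave -0.03 (adjusted p = 0.957). Dermal fibroblast markers gave 5 higher and 0 lower of 13 (41391.4 and 39254.3 against 46009.4 and 53533.9), led by Pdgfrb (0.94), Pdgfra (0.58), Col6a1 (0.49) and Col1a2 (0.43). The part of each in the class I values was not tested.

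**Figure D5:**
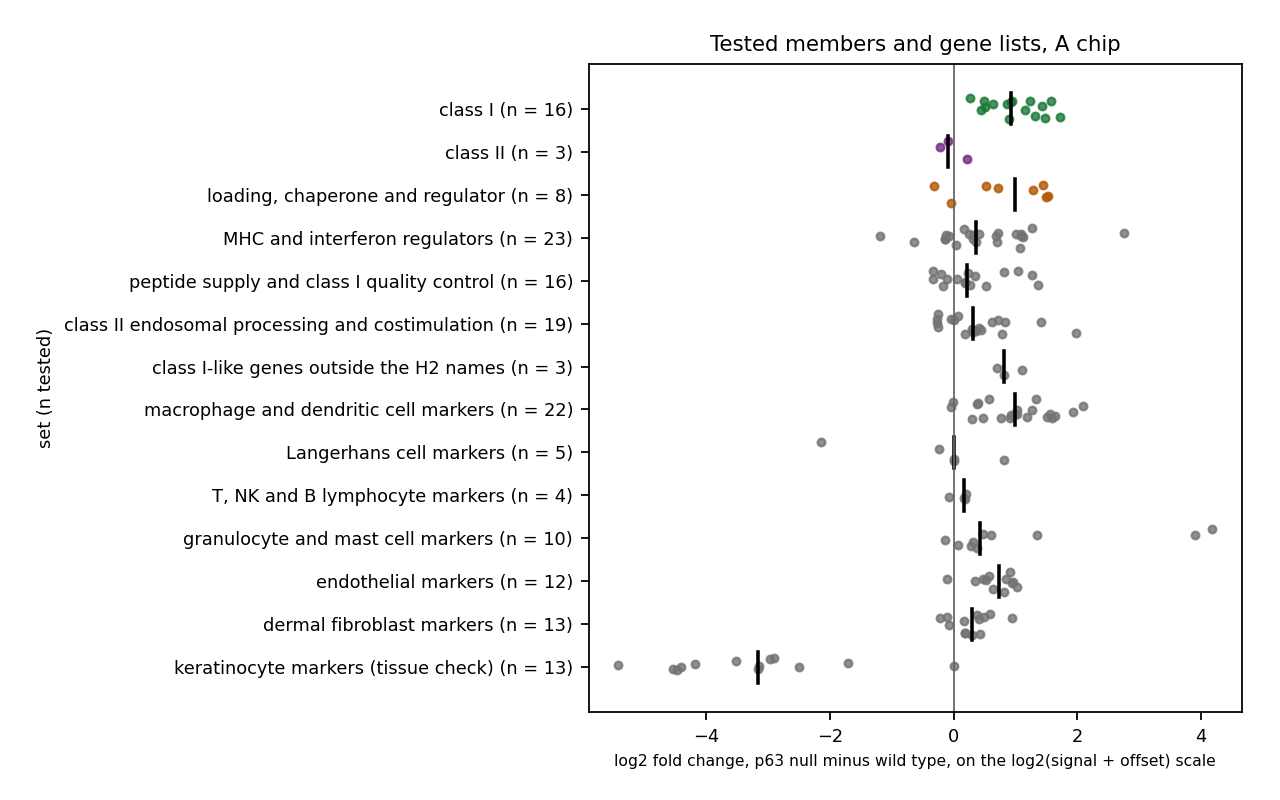
Log2 fold change (p63 null minus wild type, log2(signal + offset) scale) of each tested member probe set and of each tested gene of 11 lists on the A chip; points are probe sets or genes, spread vertically for legibility, and black bars are medians. Medians are 0.93 for class I, 1.00 for loading (0.72 without Tap2, which entered through the null arrays) and -0.09 for class II. Among the lists they are 1.00 for macrophage and dendritic cell markers, 0.81 for class I-like genes, 0.73 for endothelial markers and -3.17 for keratinocyte markers.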

How the data were processed

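Total RNA was prepared per the labels' protocols with TriZol and an RNeasy clean-up, labelled with biotin and hybridised to 8 Affymetrix arrays, 4 of the A chip and 4 of the B chip. The deposited values are linear intensities, 1 per probe set, made by the authors with MAS5 per the submitters' processing notes; neither its version nor detection calls were stated. Groups were taken from the sample titles.

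Each array was rescaled to a common 2% trimmed mean, an offset at the 20th percentile of the chip was added (12.9 for A and 54.3 for B) and log2 was taken, which understates the change of low signals. Control probe sets, 66 per chip, were dropped, and the remaining ones with a mean log2 value above the 40th percentile were tested. Each chip was fitted alone with limma 3.58.1 in R 4.3.3 (lmFit, eBayes with an intensity trend, two-sided, Benjamini-Hochberg adjustment, threshold 0.05). The fit was checked on simulated data. Genotypes were compared without pairing. Nothing ties an A-chip array to a B-chip array of the same embryo, and p-values measure only the spread between these arrays.

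Gene names are those of GEO's platform annotation, and probe sets with several symbols were left unnamed. The members, the gene lists and the motifs were chosen with earlier results of these data known. Every member was named; from each list at most the 4 called genes of largest change, and a short set chosen for its role (Irf1, Irf8, Rfx5, Psmb8, Psmb9, Psme1, Erap1, Ctss, Ifi30 and Cd86), were named; other list genes were named after their values were seen, mainly defining markers at low signal. Alternatives covered scaling, offset, filter, variance trend, replicate block, the choice of probe set and leaving out each array. Promoter sequences came from RefSeq (GRCm38.p6), whose table lacked 14 of the member genes.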

Additional observations from a re-analysis of the deposited data

How the results depend on the processing

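On the A chip the count of class I probe sets that rose was 13 under both other scalings, both other offsets and no filter, 14 with no variance trend, 10 with the filter at the 60th percentile, which tests fewer probe sets, and 9 to 12 when each array was left out in turn, lowest without wild-type array 2. Loading probe sets that rose numbered 6, or 5 with no filter (Calr rose there, and the calls of Canx 94886_at and Tapbp 162104_f_at were lost), 5 with no variance trend, 4 with the filter at the 60th percentile and 4 to 6 when each array was left out, and those that fell 0 to 1, the 1 being Pdia3 without null array 1 (-0.79). With no filter 1 class I probe set fell (H2-M10.1 100305_g_at), and in class II 1 rose (H2-DMb2) and 1 fell (H2-Oa), against 0 in each case with the filter. By gene, with the mean of all probe sets in place of the brightest, 9 class I and 3 loading genes rose in place of 10 and 4. H2-M10.1 100304_at passed with no variance trend (adjusted p = 0.0307). Pdia3 reversed without null replicate 2 (0.16); the cause was not tested. The calls of B2m, H2-K1, H2-D1, H2-K2, H2-Bl, H2-Q4, Tap1 103035_at, Tap2 and Tapbp 100154_at and 102689_at held in every alternative that tested them. The replicate block gave 13 class I and 6 loading probe sets higher and changed no member's call; over all probe sets its calls were 1674 higher with 1694 lower for A, and 1229 with 1182 for B. Same-numbered arrays of the genotypes showed no shared deviation (r across probe sets 0.04 for A, -0.05 for B); whether the numbers pair embryos is not settled by the labels, and they were treated as numbers only. When each array was left out, all tested probe sets gave 1078 to 1574 higher with 1119 to 1729 lower for A, and 546 to 1186 with 557 to 1291 for B, lowest without wild-type array 2 (without wild-type array 1 the B counts were 563 and 576). Signal near background limits class II, Ciita, Nlrc5 and Calr.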
